A study of Mus musculus with 4 samples.

Results

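The Slc25a genes encode the mitochondrial carrier family, and every gene whose symbol starts with Slc25a in the liver mRNA tables was taken as a member. This gave 33 of the 8797 genes listed for each mouse, and for 12 of the 33 the allele frequency was listed in every mouse, against 3632 of all genes. The mouse annotation GENCODE M21 holds 47 protein-coding Slc25a genes, and 14 of these were not analysed here. The livers of 4 female F1 hybrids, 5 months old, were measured by sequencing of polyadenylated RNA. The mother was MSM and the father B6 for 2 mice, and the parents were the other way round for 2 mice. B6 (C57BL/6J, of Mus musculus domesticus origin) and MSM (MSM/Ms, of Mus musculus molossinus origin) are inbred strains, and the labels name no transgene or treatment. An F1 mouse inherits every autosome from both strains, so a read over a strain-specific base reveals its allele. Expression was given in FPKM, fragments scaled to transcript length and to the size of the library, and the B6-allele frequency is the number of B6 reads divided by the number of B6 and MSM reads. Read counts were not part of the values used here, so the depth behind each value is unknown and the spread between mice is the only error that could be given. The labels do not say that the mice of a cross came from separate litters, and p-values measure the spread between these mice. For p-values and standard errors (SE), the variance of each gene was moved toward a value pooled over genes.

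The mitochondrial inner membrane is impermeable to most metabolites, and proteins of the carrier family move them across it, usually by exchanging a molecule inside for a molecule outside. They pass ADP and ATP, phosphate, amino acids, carboxylates and cofactors, and most members consist of repeats of the same pair of membrane helices. Liver depends on several of them, because the urea cycle, gluconeogenesis, fatty acid oxidation and the transfer of reducing equivalents each run partly inside and partly outside the mitochondrion.

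Across the family, 5 of 12 measurable members had a B6-allele frequency different from 0.5, close to the share of 36.2% among all genes. None of the 33 was called different in expression between the reciprocal crosses, and only 0.0455% of all genes were. Of the 3 expressed more from the B6 allele, Slc25a10 and Slc25a47 had mean frequencies of 0.627 and 0.609. Slc25a22 and Slc25a23 were expressed more from the MSM allele, with means of 0.435 and 0.463. The imbalances were small, and no member reached the allele-biased range of at least 0.8 or at most 0.2, beside 3.19% of all genes.

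The sequences upstream of Slc25a10, Slc25a47 and Slc25a22 are shown because these genes had the lowest adjusted p-values among members for each direction of imbalance. They are the 250 bases before a RefSeq transcription start on the mm10 assembly (GRCm38.p6), 5′ to 3′ on the strand of the gene, and they are the B6 reference, so no base of the MSM allele is shown. The Slc25a10 window is chr11:120491587-120491836 on the plus strand, the Slc25a47 window is chr12:108850879-108851128 on the plus strand, and the Slc25a22 window is chr7:141437875-141438124 on the minus strand. Capitals mark a CCAAT box on the opposite strand in Slc25a47 and a GC box in Slc25a22.
Slc25a10: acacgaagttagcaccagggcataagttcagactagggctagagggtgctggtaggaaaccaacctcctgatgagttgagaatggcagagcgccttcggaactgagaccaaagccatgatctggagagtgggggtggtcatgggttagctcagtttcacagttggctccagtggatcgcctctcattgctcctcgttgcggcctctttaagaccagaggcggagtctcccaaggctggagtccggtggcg
Slc25a47: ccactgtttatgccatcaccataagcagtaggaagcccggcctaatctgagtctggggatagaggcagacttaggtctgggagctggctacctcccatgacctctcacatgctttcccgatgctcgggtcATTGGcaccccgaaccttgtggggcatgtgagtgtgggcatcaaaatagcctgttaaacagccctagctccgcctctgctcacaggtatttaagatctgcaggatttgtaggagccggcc
Slc25a22: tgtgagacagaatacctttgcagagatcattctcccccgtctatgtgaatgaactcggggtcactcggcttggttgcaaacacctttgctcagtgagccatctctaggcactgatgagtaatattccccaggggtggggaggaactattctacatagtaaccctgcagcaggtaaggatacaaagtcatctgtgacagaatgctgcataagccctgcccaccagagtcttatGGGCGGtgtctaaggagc

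Motifs were searched on both strands over all 32851 RefSeq windows of the same length. The TATA box (TATAAA) was found in 12.4% of them, the CCAAT box (CCAAT) in 33.8%, the GC box (GGGCGG) in 32.7%, the E-box (CACGTG) in 6.02% and the CRE core (TGACG) in 17.8%. The Slc25a10 window held none of them, and the marked matches were the only ones in the other windows, with no overlap between motifs. GC content was 56% for Slc25a10, 54.4% for Slc25a47 and 50% for Slc25a22, beside a median of 52.4% for all windows. RefSeq gave an entry for 26 of the 33 members. The Slc25a47 start lay 15083 bp inside the gene as GENCODE draws it, and Slc25a22 had 3 starts, of which the window of the start 18 bp from the GENCODE start is shown.

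Levels of the family covered a wide range. 8 members had a mean above 100 FPKM, 14 lay from 10 to 100 and 11 lay below 10, and the median of the member means was 21.2 FPKM, beside 11.5 for all listed genes. Summed over members, expression was 2616 and 2479 FPKM in MSM mother replicates 1 and 2, and 2203 and 2369 FPKM in B6 mother replicates 1 and 2. In the same order of mice, the family made up 0.389%, 0.459%, 0.417% and 0.414% of the FPKM of all listed genes. MSM mother replicate 1 thus had the highest sum and the lowest share. Slc25a47, Slc25a5, Slc25a39 and Slc25a3 made up 53.8% to 58.5% of the family. In the order of means, 26 of the 32 neighbouring pairs had overlapping mice. The 6 steps without overlap were Slc25a5 above Slc25a39, Slc25a3 above Slc25a15, Slc25a22 above Slc25a23, Slc25a42 above Slc25a17, Slc25a38 above Slc25a45 and Slc25a33 above Slc25a4. Compared within each mouse, Slc25a39 was also always above Slc25a3, Slc25a15 above Slc25a22 and Slc25a46 above Slc25a38. In bulk liver, fewer cells of a type and less RNA per cell cannot be told apart.

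**Figure D1:**
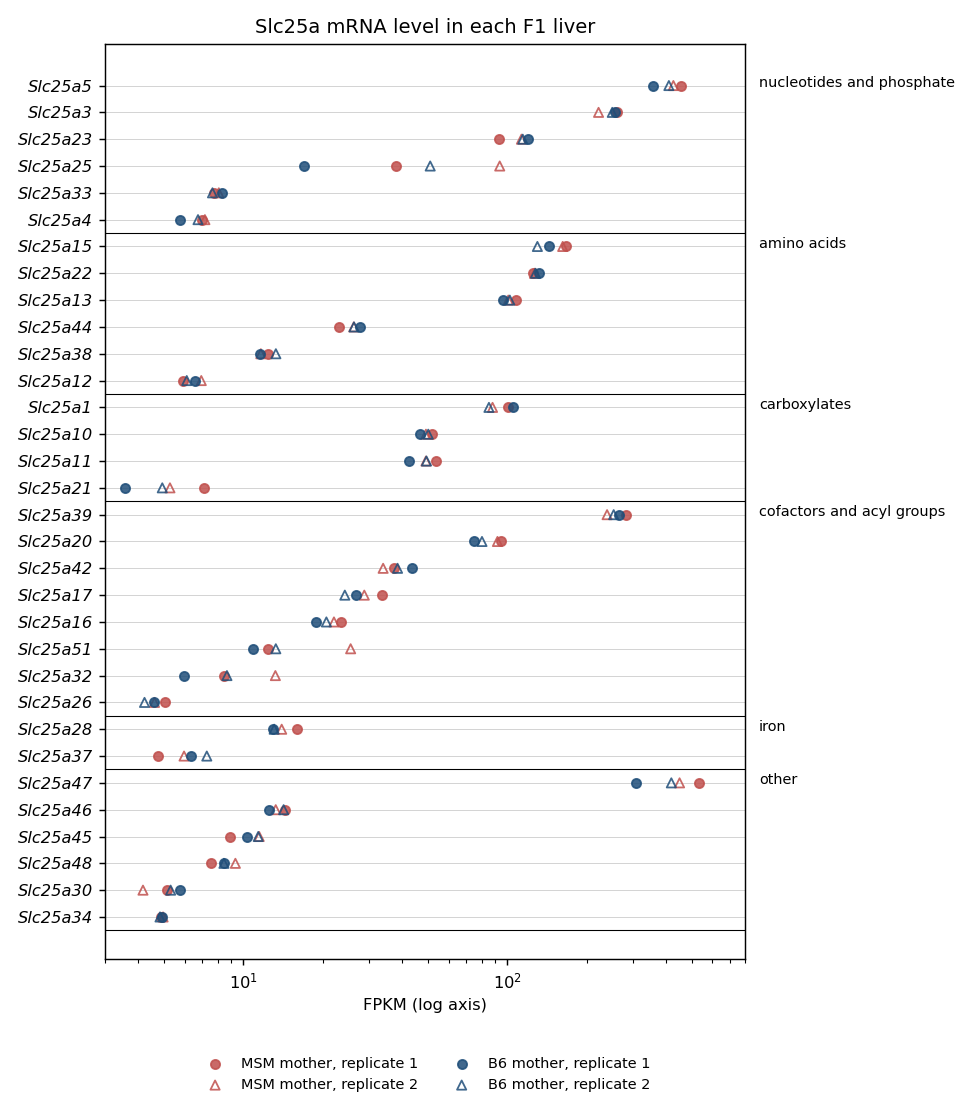
FPKM of 32 Slc25a genes in each of the 4 mice, on a log axis, grouped by what each carrier transports; each symbol is a mouse and the symbol marks its cross and replicate. The 4 highest members, Slc25a47, Slc25a5, Slc25a39 and Slc25a3, have means of 427, 412, 260 and 248 FPKM.

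Values below are given in the order MSM mother replicates 1 and 2, then B6 mother replicates 1 and 2. Among the carriers of nucleotides and phosphate, Slc25a5, an ADP/ATP carrier that exchanges cytosolic ADP for mitochondrial ATP, was at 456, 427, 356 and 410 FPKM (412 ± 41.9, SD, n = 4). Its paralog Slc25a4, the ADP/ATP carrier typical of heart and muscle, was at 6.98, 7.15, 5.74 and 6.73 FPKM. The level of Slc25a5 was 62.0 times that of Slc25a4 as a geometric mean, and from 59.7 to 65.3 times in single mice, so the ratio was nearly fixed while both levels varied. Slc25a5 has an annotated processed copy, Slc25a5-ps, and reads were placed at a single site, so its level is uncertain to the extent that the copies share reads. Slc25a3, the phosphate carrier that supplies ATP synthase, was at 261, 222, 257 and 250 FPKM (248 ± 17.6, SD), and the crosses overlapped.

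Slc25a23 and Slc25a25 both encode calcium-dependent ATP-Mg/phosphate carriers, which adjust the adenine nucleotide content of the matrix. Slc25a23 was at 93.5, 113, 120 and 115 FPKM (110 ± 11.5, SD), and both B6 mother mice were above both MSM mother mice. Slc25a25 was at 37.8, 93.7, 17 and 51.1 FPKM (49.9 ± 32.4, SD). Replicate 2 was the higher mouse of each cross for Slc25a25, and the crosses overlapped. The ratio of Slc25a23 to Slc25a25 ran from 1.21 to 7.04. Slc25a33, a pyrimidine nucleotide carrier, was at 7.64 to 8.30 FPKM in the 4 mice.

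Among the amino acid carriers, Slc25a15, which exchanges ornithine and citrulline for the urea cycle, was highest at 167, 162, 144 and 130 FPKM (151 ± 17.1, SD). Both MSM mother mice were above both B6 mother mice. Slc25a22, a glutamate carrier, was at 125, 127, 132 and 128 FPKM (128 ± 2.90, SD), a spread of 2.26% of its mean. Slc25a13 and Slc25a12 both encode aspartate/glutamate carriers of the malate-aspartate shuttle, and Slc25a13 (citrin) is the liver form. Slc25a13 was at 108, 101, 96.1 and 102 FPKM (102 ± 4.91, SD) and Slc25a12 at 5.90, 6.93, 6.56 and 6.10 FPKM. Slc25a13 was 16 times Slc25a12 as a geometric mean, with 14.6 to 18.3 times in single mice. Slc25a44, a carrier of branched-chain amino acids, had a mean of 25.8 FPKM, and Slc25a38, a glycine carrier needed for heme synthesis, had a mean of 12.2 FPKM.

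The carboxylate carriers Slc25a1, Slc25a10 and Slc25a11 move citrate, dicarboxylates such as malate and succinate, and oxoglutarate. Slc25a1 was at 101, 88.0, 105 and 85.3 FPKM (94.8 ± 9.62, SD), and replicate 1 was the higher mouse of each cross. Slc25a10 was at 51.8, 49.2, 46.7 and 50.2 FPKM (49.5 ± 2.17, SD) and Slc25a11 at 53.8, 49.2, 42.6 and 49.4 FPKM (48.8 ± 4.62, SD). The ratio of Slc25a10 to Slc25a11 lay between 0.963 and 1.09, so their order was not the same in every mouse. Slc25a1 was above Slc25a10 in each mouse, by 1.70 to 2.25 times. The remaining carboxylate carrier, Slc25a21, was at 7.09, 5.27, 3.57 and 4.93 FPKM.

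Of the carriers of cofactors and acyl groups, Slc25a39, required for the import of glutathione, was at 282, 239, 265 and 253 FPKM (260 ± 18.3, SD), and the crosses overlapped. Slc25a20 imports acylcarnitine for fatty acid oxidation, and it was at 95.1, 91.9, 74.7 and 80.3 FPKM (85.5 ± 9.61, SD), with both MSM mother mice above both B6 mother mice. Slc25a42 and Slc25a17, which carry coenzyme A into mitochondria and peroxisomes, had means of 38.3 and 28.3 FPKM. Slc25a51, the NAD carrier, was at 12.5, 25.5, 10.9 and 13.3 FPKM, and a single mouse, MSM mother replicate 2, stood well above the rest. Slc25a32, linked to folate and FAD, was at 8.45, 13.2, 5.95 and 8.66 FPKM, and the same mouse was highest.

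The iron carriers are the mitoferrins. Slc25a28 (mitoferrin 2), the form of most tissues, was at 16, 14.0, 12.9 and 13.1 FPKM, and Slc25a37 (mitoferrin 1), the form of developing red cells, at 4.74, 5.96, 6.31 and 7.27 FPKM. Slc25a28 was above Slc25a37 in every mouse, by 1.80 to 3.37 times. Slc25a37 was higher in both B6 mother mice. The summed FPKM of 4 erythroid genes (Hba-a1, Hba-a2, Hbb-bs and Alas2) was 308, 128, 769 and 449 FPKM. Hba-a2 (175, 83.2, 610 and 398 FPKM) made up most of it and, like Hbb-bs, was higher in both B6 mother mice, while Hba-a1 (124, 36, 136 and 23.6 FPKM) and Alas2 (6.63, 6.21, 8.69 and 4.67 FPKM) overlapped between the crosses. The part of erythroid RNA in the level of Slc25a37 was not tested.

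Slc25a47, a carrier known for its restriction to liver, had the highest mean of the family, at 532, 450, 307 and 419 FPKM (427 ± 93.2, SD). Both MSM mother mice were above both B6 mother mice, and B6 mother replicate 1 was the lowest. Slc25a46, a family member in the outer membrane, had a mean of 13.6 FPKM, and Slc25a34, with no substrate named here, had the smallest relative spread of the family at 4.85, 4.96, 4.92 and 4.83 FPKM, or 1.23% of its mean. The 6 hepatocyte markers listed above 0 in every mouse summed to 10087 to 16228 FPKM, far above the 99.2 to 119 FPKM of the endothelial, 113 to 164 FPKM of the Kupffer cell and 71.0 to 97.2 FPKM of the stellate markers. The liver label thus matched the hepatocyte markers that could be summed. Alb, also on the hepatocyte list, was not among the listed genes, and neither were Adgre1 of the Kupffer cell markers or Lrat and Col1a1 of the stellate markers. Cyp2e1, a further hepatocyte gene left out of this sum, was listed at an FPKM of 0 in both MSM mother mice although it had a frequency in each, and 33 genes were listed at 0 in at least 1 mouse. No Slc25a gene was listed at 0 in any mouse.

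Variation between mice was modest for most members. The median coefficient of variation over the 4 mice was 9.94% for members and 11.4% for all genes, and 17 members were under 10%. 6 members were over 20%, among them Slc25a25, Slc25a51, Slc25a32, Slc25a21 and Slc25a47, and 16.8% of all genes were over 20%. Slc25a25 had a coefficient of 64.9%, at percentile 99 of all genes. In the same mice Pck1, the rate-limiting enzyme of gluconeogenesis, was at 990, 2045, 405 and 852 FPKM and Tat, a tyrosine-degrading enzyme induced by glucocorticoids, at 749, 1424, 403 and 625 FPKM. All 3 genes had MSM mother replicate 2 as the highest mouse and B6 mother replicate 1 as the lowest, and a correlation was not computed over 4 mice. Pck1 and Tat were picked from the gluconeogenic and hepatocyte lists, and others there did not share this order. Pcx was at 193, 203, 208 and 173 FPKM, Apoa1 and Ttr were highest in MSM mother replicate 1, and Cps1 and Hnf4a were lowest in that mouse. The share of all genes with this order was not computed, and a common cause was not tested.

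**Figure D2:**
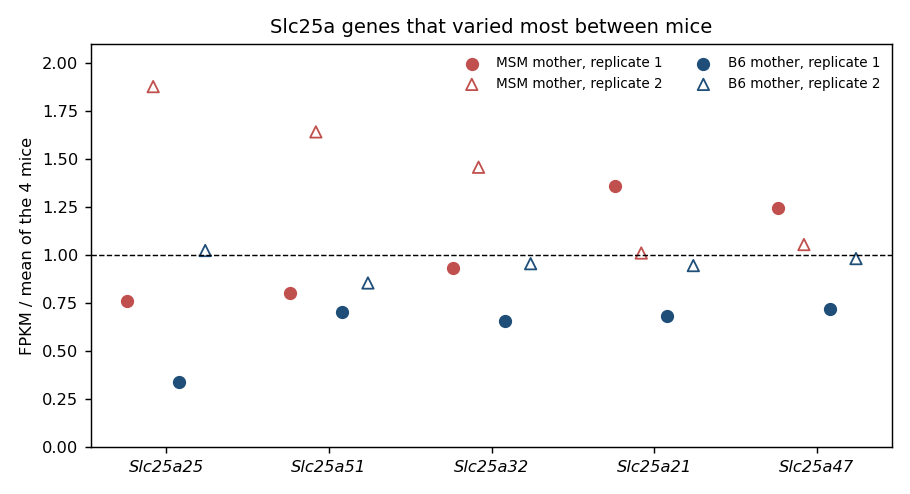
FPKM of 5 Slc25a genes with a coefficient of variation over 20%, divided by the mean of each gene over the 4 mice, so that 1 is the mean of the gene; each symbol is a mouse, marked by cross and replicate. Slc25a25 runs from 17 FPKM in B6 mother replicate 1 to 93.7 FPKM in MSM mother replicate 2.

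The comparison of the reciprocal crosses asked whether the level of a carrier depended on which strain was the mother. With limma on log2(FPKM + 1), 0 of 33 members were called at an adjusted p under 0.05. Of all genes, 4 (0.0455%) were called, each of them listed at 0 in some mouse, and 0 of 8764 genes were called without such genes. At an unadjusted p under 0.05, 1 member passed, beside 8.87% of all genes.

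By size of the log2 difference, Slc25a25 and Slc25a51 were the members furthest toward an MSM mother, at 0.99 (SE 0.60) and 0.53 (SE 0.32). These values rested on single mice: Slc25a25 was at 0.22 without B6 mother replicate 1, 0.34 without MSM mother replicate 2, 1.63 without MSM mother replicate 1 and 1.75 without B6 mother replicate 2. Slc25a51 was at 0.05 without MSM mother replicate 2 and 1.02 without MSM mother replicate 1. Slc25a37, Slc25a30 and Slc25a42 were the furthest toward a B6 mother, at -0.30 (SE 0.14), -0.22 (SE 0.13) and -0.20 (SE 0.14). Slc25a30 is an uncoupling protein-like carrier, and it was at 5.13, 4.16, 5.78 and 5.30 FPKM. Slc25a42 was at 37.2, 33.9, 43.7 and 38.4 FPKM. For the abundant members, the log2 difference was 0.45 (SE 0.22) for Slc25a47, 0.21 (SE 0.17) for Slc25a5, 0.00 (SE 0.17) for Slc25a39 and -0.08 (SE 0.16) for Slc25a3. None of these passed the test.

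The FPKM of the crosses did not overlap for 17 of 33 members, beside 42.4% of all genes. In 11 of the 17 both MSM mother mice were higher, and in 6 both B6 mother mice were higher. The median log2 difference was 0.06 over members and 0.02 over all genes. With 2 mice against 2, an exact permutation test of a single gene cannot go below p = 0.33.

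**Figure D3:**
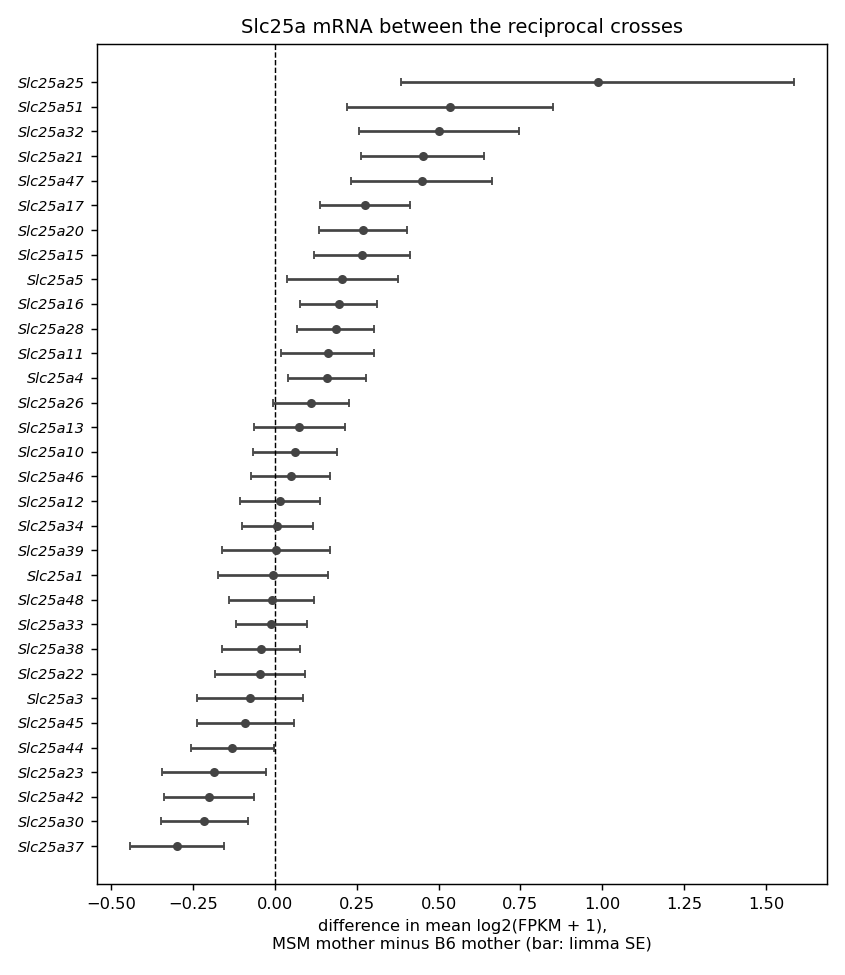
Difference in log2(FPKM + 1) of 32 Slc25a genes, MSM mother minus B6 mother, each point with its limma standard error as a bar. No member was called, and estimates run from -0.30 for Slc25a37 to 0.99 for Slc25a25.

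Frequencies were listed for some members and not for others, and this followed position. All 12 members with a frequency lay beyond 100 Mb on chromosomes 1 to 15 and X, or beyond 10 Mb on chromosomes 16 to 19. Slc25a1, on chromosome 16, was the only 1 of 13 members in these stretches without one, and 0 of 20 members before them had one. Of all genes with a GENCODE position, 89.8% beyond these points and 1.97% before them had a frequency. The reason for this was not tested. Thus the highly expressed Slc25a5, Slc25a3, Slc25a15 and Slc25a13 could not be compared between alleles.

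Frequencies of the 12 members were tight between mice. The median SD over the 4 mice was 0.0166 for members and 0.0272 for all genes, and the median frequency was 0.513 and 0.510. The mean lay between 0.4 and 0.6 for 10 of 12 members and for 79.0% of all genes. 5 members were above 0.5 in all 4 mice, 2 were below it in all 4, and 5 had mice on both sides.

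Equal use of the alleles was tested by limma with frequencies turned into log2 odds, which are 0 at a frequency of 0.5. Imbalance was called for 5 of 12 members and 36.2% of all genes. It was toward B6 for 3 members and 22.6% of all genes, and toward MSM for 2 members and 13.6% of all genes. The share of members called was thus close to that of all genes. The median size of the log2 odds was 0.15 over members and 0.24 over all genes. At an unadjusted p under 0.05, 6 members passed, the additional member being Slc25a38.

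Slc25a10 showed the highest mean frequency of the family, at 0.625, 0.641, 0.610 and 0.630 (0.627 ± 0.0128, SD, n = 4). All mice were above 0.6 and the crosses overlapped. Its log2 odds were 0.75 (SE 0.05, limma adjusted p 0.00586), or 1.68 B6 reads for each MSM read. The gene lies on chr11:120491840-120499187, plus strand. Slc25a47 had frequencies of 0.599, 0.619, 0.605 and 0.613 (0.609 ± 0.00882, SD), again with overlapping crosses. Its log2 odds were 0.64 (SE 0.05, limma adjusted p 0.00669), or 1.56 B6 reads for each MSM read, and the gene lies on chr12:108836046-108856815, plus strand. The FPKM of Slc25a47 ran from 307 to 532 in the same mice, on a scale that cannot be compared directly with that of a fraction. Both calls were lost without B6 mother replicate 1 or without B6 mother replicate 2, at limma adjusted p 0.0549 and 0.0567 for Slc25a10 and 0.0614 and 0.0657 for Slc25a47.

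Slc25a38 had frequencies of 0.540, 0.626, 0.568 and 0.617 (0.588 ± 0.0406, SD). All 4 mice were above 0.5, and its log2 odds of 0.51 (SE 0.12) missed the threshold with a limma adjusted p of 0.0524. It passed under 4 of 10 alternatives, with adjusted p-values from 0.0410 to 0.197 over all of them.

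Slc25a22 had frequencies of 0.448, 0.434, 0.429 and 0.427 (0.435 ± 0.00933, SD), the lowest mean of the family. Its log2 odds were -0.38 (SE 0.04, limma adjusted p 0.0132), or 1.30 MSM reads for each B6 read. The gene lies on chr7:141429744-141437892, minus strand. Slc25a23 had frequencies of 0.478, 0.465, 0.452 and 0.457 (0.463 ± 0.0110, SD), all below 0.5. The log2 odds, -0.21 (SE 0.04), passed with a limma adjusted p of 0.0388. It lies on chr17:57043711-57059863, minus strand, and overlaps Crb3 on the opposite strand, which had a mean frequency of 0.438. The library kept strand, and reads were aligned with the strand set. Whether reads of Crb3 entered the frequency of Slc25a23 was not tested. Both calls were lost when any of the 4 mice was left out, at limma adjusted p 0.0609 to 0.0908 for Slc25a22 and 0.111 to 0.166 for Slc25a23.

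The other 6 members were not called. Slc25a20 was above 0.5 in every mouse, at 0.531, 0.509, 0.517 and 0.509 (0.516 ± 0.0105, SD, limma adjusted p 0.217). Slc25a39 was closest to equal use, at 0.506, 0.512, 0.497 and 0.502 (0.504 ± 0.00647, SD, limma adjusted p 0.652). These are among the most abundant members, so allele use near 0.5 was seen at high FPKM as well.

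Slc25a28 had the widest range of the uncalled members near 0.5, at 0.470, 0.521, 0.552 and 0.518 (0.515 ± 0.0341, SD). Slc25a34 was at 0.524, 0.492, 0.539 and 0.489 (0.511 ± 0.0246, SD), and Slc25a46 at 0.526, 0.479, 0.535 and 0.497 (0.509 ± 0.0258, SD). Slc25a33 was at 0.493, 0.474, 0.522 and 0.485 (0.494 ± 0.0204, SD). In each of these 4 genes some mice lay above 0.5 and others below, and each has a mean under 20 FPKM.

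**Figure D4:**
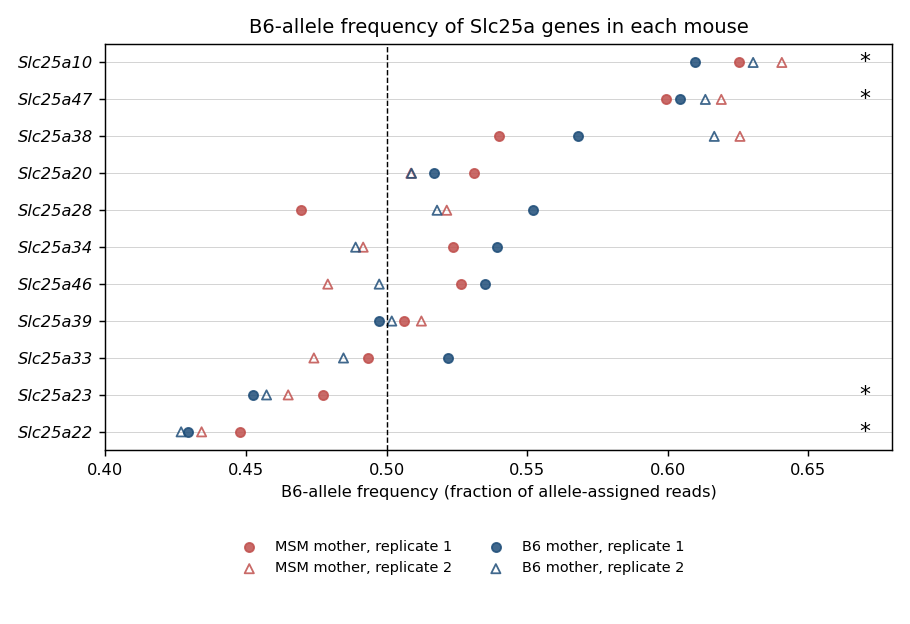
B6-allele frequency of 11 Slc25a genes measured in all 4 mice; each symbol is a mouse, the dashed line is equal use at 0.5, and an asterisk marks a limma adjusted p under 0.05. Means run from 0.435 for Slc25a22 to 0.627 for Slc25a10.

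The reciprocal design also asked whether allele use depended on the parent that gave the allele. None of the 12 members was called between the crosses by limma, with adjusted p-values from 0.901 to 1, and 0 of 12 passed at an unadjusted p under 0.05. Of all genes, 0.0826% were called and 5.23% passed unadjusted. The frequencies of the crosses did not overlap for Slc25a22, Slc25a23 and Slc25a39, or 3 of 12 members, beside 34.3% of all genes. In all 3 the MSM mother mice were higher. The difference in log2 odds, MSM mother minus B6 mother, was 0.08 (SE 0.09) for Slc25a22 and 0.10 (SE 0.09) for Slc25a23, and it was -0.23 (SE 0.16) for Slc25a28. No member had a mean frequency of at least 0.8 or at most 0.2, beside 3.19% of all genes, and none did at 0.7 and 0.3.

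Genes near called members were used to describe their surroundings, over a distance of 200 kb. Around Slc25a10, 16 genes had a frequency, from 0.418 to 0.554 with a median of 0.513, and all 16 were closer to 0.5 than Slc25a10. The nearest, Mrpl12, a mitochondrial ribosomal protein gene 2775 bp away, was at 0.516. P4hb, at 0.547, was the only neighbor called in the direction of Slc25a10, and 3 were called toward MSM. Around Slc25a47, Wars, a tRNA synthetase gene 3215 bp away, was at 0.532 and Yy1, a transcription factor gene 15898 bp away, at 0.511, and neither was called.

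Around Slc25a22, 14 genes ranged from 0.395 to 0.764. Deaf1 at 0.395 and Chid1 at 0.446 were called toward MSM like Slc25a22, and 4 were called toward B6. Around Slc25a23, none of 8 genes, from 0.438 to 0.545, was called. These differences between a member and its neighbors were not tested.

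**Figure D5:**
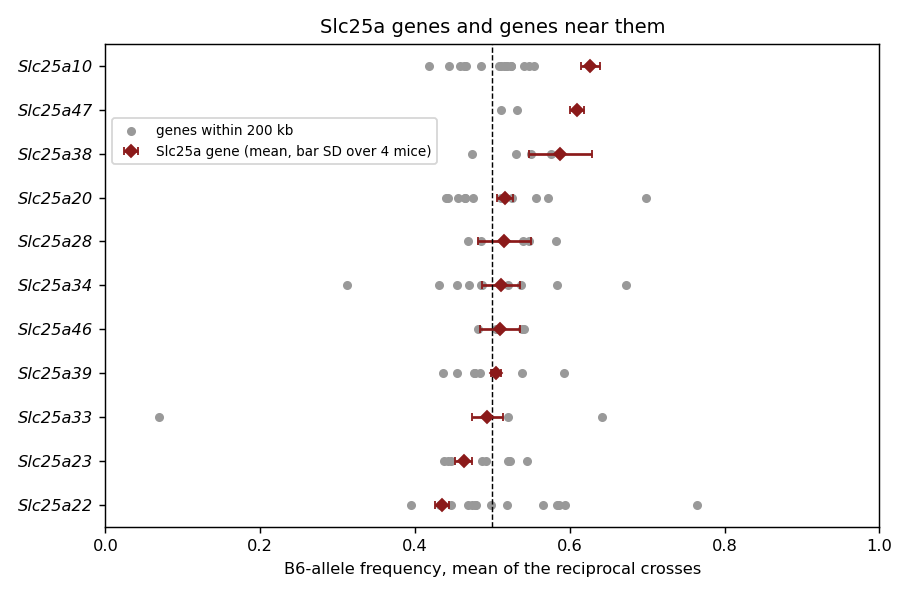
Mean B6-allele frequency of 11 Slc25a genes (diamonds, bars are the SD over 4 mice) and of genes with a frequency within 200 kb of each (gray points); the dashed line is equal use. Slc25a10 at 0.627 lies above all 16 of its neighbors, which end at 0.554.

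Genes that work with the carriers were listed by function. Of 5 carrier-fold proteins with other symbols, 3 were among the listed genes, and Ucp2, an uncoupling protein, was called toward B6 at 0.575, 0.582, 0.572 and 0.622 (limma adjusted p 0.0189). Of 15 other genes of inner membrane transport, 6 had a frequency. Mpc1, among these 6, differed widely between mice, at 0.714, 0, 1 and 0, and was not called. Abcb10, an ABC transporter of mitochondria, was called toward B6 with a mean of 0.581 and Sfxn2, a sideroflexin, toward MSM at 0.324, 0.349, 0.362 and 0.364 (limma adjusted p 0.00481). Sfxn2 thus departed further from 0.5 than any Slc25a gene measured.

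The 3 outer membrane channel genes, Vdac1, Vdac2 and Vdac3, had no frequency, and none of the 3 carrier import genes with a frequency was called. One of these import genes, Timm8a1, was at 0.327, 0.533, 0.318 and 0.277. For enzymes that share substrates with a carrier, 0 of 4 urea cycle genes and 0 of 2 citrate genes were called. Among the urea cycle genes, Ass1 was at 0.534, 0.501, 0.9998 and 0.518, so B6 mother replicate 1 stood far from the rest. In the malate-aspartate shuttle, served by Slc25a13, Mdh2 was called toward B6 at a mean of 0.551, as 1 of 3 with a frequency. Mdh1, another of the 3, was at 0.8, 0, 0.714 and 1, and the SE of its log2 odds was 1.96. An uncalled gene of these lists was thus not always shown to be near 0.5, and the allele use of Mdh1 was not determined. Pck1, the only gluconeogenic gene with a frequency, was called toward B6 at 0.580. In expression between the crosses, none of these genes was called.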

How the data were processed

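Livers of 4 female F1 mice, 2 of each reciprocal cross, were grouped by the parents named in the sample labels. The authors homogenized liver, selected polyadenylated RNA, made directional libraries, used Trim Galore on 150-bp read pairs, ran TopHat2 against SNP-masked mm10 with at most 1 alignment per read, split alleles with SNPsplit and quantified genes with Cuffdiff. Tool versions are not given in the sources used here. The deposited FPKM values and the deposited fraction (B6 reads over B6 plus MSM reads) were used as given. The authors give the number of read pairs only as a range over their libraries. The reads behind each gene are unknown, because neither unit keeps counts. Placing a read that fits several paralogs at 1 of them can shift levels between near-identical genes.

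Frequencies were limited to 0.01 to 0.99, turned into log2 odds and fitted with limma 3.58.1 in R 4.3.3 across all 3632 genes. The intercept averages the crosses and was compared with 0, and the cross coefficient compares them. FPKM was tested as log2(FPKM + 1) with limma and a variance trend over all 8797 genes, since each had a mean of at least 1 FPKM. Fold changes on this scale understate the change of low genes. All p-values are two-sided and were adjusted over all genes by the Benjamini-Hochberg method, with a threshold of 0.05. The fits were tested on simulated data with 200 changed genes and no change in the others. At log2 odds of 0.5, 80 of the 200 were called, and at a log2(FPKM + 1) difference of 1 between crosses, 80 were called. Real changes of these sizes can thus go uncalled. In the real data 36.2% of genes were called imbalanced, so the share of such imbalances found can differ from the simulated share. The frequency test between crosses was tried only at a log2 odds difference of 4, where 183 were called. Ratios between members are of FPKM, which is scaled to length. Positions came from GENCODE M21, which matched all 33 members, and promoters from RefSeq. Python 3.11.15, numpy 2.4.6, pandas 2.3.3 and matplotlib 3.10.9 were used.

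The members and the lists of related and marker genes were chosen with earlier results of these data known. Named in the text are every member with a frequency, the 10 with the highest mean FPKM, called members, the 3 furthest toward each cross in expression, and members of related pairs. A gene that this rule covers is counted but not reported here. Neighbors and genes varying most between mice were named after their values were seen. None of the cholangiocyte, muscle and adipocyte markers looked for was among the listed genes. Alternatives were a replicate block, leaving out each mouse, and other pseudocounts, limits, filters, scales and normalizations. The omission of genes listed at 0 was chosen after seeing the data.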

Additional observations from a re-analysis of the deposited data

Results flagged for a closer look

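The FPKM of Slc25a51, the NAD carrier, in MSM mother replicate 2 was 25.5, and the other 3 mice lay between 10.9 and 13.3. The gap from this mouse to the next was 0.838 of the whole range, above the critical value for 4 samples. The 4 mice were taken as a single group for this, and 45 values of the family were examined, of which 1 was this far from the others. Chance flags about 1 in 20 such groups. The same mouse was also the highest of the 4 for Slc25a25 and Slc25a32, and the cause was not tested.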

How the results depend on the processing

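The 3 members called toward B6 became 0 to 2 and the 2 called toward MSM became 0 when a mouse was left out. The fit with 3 mice assumes that the lone mouse of a cross varies like the others, and over all genes it called 181 to 514 imbalances in place of 1316. Without either B6 mother mouse no member was called, and without either MSM mother mouse Slc25a10 and Slc25a47 were. Adjusted p-values over alternatives ran from 0.00373 to 0.0567 for Slc25a10, 0.00447 to 0.0657 for Slc25a47, 0.00783 to 0.0908 for Slc25a22 and 0.0222 to 0.166 for Slc25a23.

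With a replicate block, 1 member was called toward MSM (Slc25a22, without Slc25a23 at adjusted p 0.0987), and 1 member in expression, Slc25a25 (log2 difference 0.99, adjusted p 0.000727). Over all genes the block gave 775 imbalances, 285 expression calls in place of 4 and 2 cross calls in frequency in place of 3. The labels do not say that equal numbers pair mice, and differences of replicate 1 minus replicate 2 correlated between crosses over genes by 0.00375 for expression and 0.146 for log2 odds. Centering each mouse changed the split of all calls from 822 toward B6 and 494 toward MSM to 705 and 604. Cross calls in frequency ran from 0 to 6 and expression calls from 13 to 21 without a mouse, and 1 cross call was left with wider limits.

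Log2 odds changed sign for Slc25a33 without B6 mother replicate 2 (0.016, with -0.0909 as the lowest value without a mouse), Slc25a34 without B6 mother replicate 1 (-0.0093, with 0.136 as the highest), Slc25a39 with each mouse centered (-0.030) and Slc25a46 with each mouse centered (-0.0013) or without MSM mother replicate 1 (-0.014, with 0.123 as the highest). The cause was not tested. Of the tested values of single members, 204 kept their direction and side of the threshold, 17 lost and 5 gained it. Without B6 mother replicate 1 the mean log2 ratio of Slc25a10 to Slc25a11 went from 0.025 to -0.011.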
